A study of Mus musculus with 18 samples.

Results

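Leucine starvation was compared with arginine starvation in mouse embryonic stem cells that lack GCN2. The comparison holds the 3 libraries labelled Gcn_Leu and the 3 labelled Gcn_Arg, 6 of the 18 libraries of the series, chosen by those labels. All 6 came from E14 cells, an established mouse embryonic stem cell line, of genotype Eif2ak4-/- (GCN2 knock-out). They were kept for 3 h in SILAC medium with 5% dialyzed serum, LIF and lysine, without leucine (Gcn_Leu) or without arginine (Gcn_Arg). The 3 Gcn_Unstarved libraries, of the same genotype and in the same medium with all amino acids, served to place both groups against unstarved cells. The 9 Wt libraries of E14 cells with GCN2 (Wt_Leu, Wt_Arg and Wt_Unstarved, 3 each) served for the same contrast in the other genotype. Before starvation all cells had grown on gelatin with 15% serum and 10 ng/ml LIF. How many clones the Eif2ak4-/- cells came from is not given in the sources used here, and genotype and culture history cannot be told apart. The labels do not say whether replicates came from separate cultures, so each p-value speaks only to how far these libraries spread, which may be technical.

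GCN2, encoded by Eif2ak4, is a kinase that binds uncharged tRNA. When an amino acid runs short it phosphorylates the initiation factor eIF2α, which slows translation in general and raises that of ATF4, a transcription factor for amino acid synthesis and transport. Cells without GCN2 still sense amino acids through mTORC1, which is held on lysosomes by Rag GTPases. For this pathway leucine is read by the Sestrins, and arginine by the cytosolic sensor CASTOR1 and by the lysosomal transporter SLC38A9. When mTORC1 activity falls, the MiT/TFE factors, which bind E boxes, enter the nucleus and raise lysosomal genes.

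Expression is given in CPM, a gene's counts brought to a common library total, with TMM normalization factors from edgeR computed within 1 genotype. Eif2ak4 stood at 6.33, 4.41 and 5.80 CPM in the Gcn_Arg libraries, at 4.45, 4.07 and 5.59 CPM in the Gcn_Leu libraries and at 6.21, 4.91 and 4.6 CPM in the Gcn_Unstarved ones. The 9 Wt libraries, scaled apart, stood at 27.0 to 33.2 CPM. The 3 Gcn groups overlapped, and Eif2ak4 was not called between the starved groups (log2 fold change -0.22 ± 0.18 SE, edgeR quasi-likelihood adjusted p = 0.545). It lies on chromosome 2, and which of its exons the deletion removes is not given in the sources used here. Libraries held 14.8 M to 38.8 M counts, and the Gcn_Arg totals (14.8 M to 24.1 M) lay below the Gcn_Leu totals (27.5 M to 38.8 M) without overlap. Counts thinned to the shallowest library gave 1269 calls in place of the 1395 below, of which 1165 were shared. All 9 stem cell markers were expressed, at a summed 8300 to 8720 CPM (of the unscaled library total) without arginine and 8800 to 9350 without leucine, with 2 called higher without leucine (Nanog and Zfp42) and 1 lower (Sall4). Of 8 fibroblast markers 4 were tested and 0 called (summed 7.51 to 11.6 without arginine, 7.19 to 10.6 without leucine, with Postn at 0). Of 8 markers of differentiated cells 7 were tested and 0 called (43.7 to 54.1 without arginine, 39.2 to 41.2 without leucine, 25.3 to 29.2 unstarved). At an unadjusted p under 0.05 in edgeR there were 1 and 2 of these markers, DESeq2 called 0 and 1, and limma-voom 0 and 0. With the library number as a block, described below, 1 and 1 were called. On the second principal component (19.8% of the variance) the 3 Gcn libraries numbered 1, 1 of each group, stood apart at -27.1 to -22.2 against 6.4 to 16.9. Without them 1224 genes were called, of which 1020 were shared with the 1395. In bulk RNA, fewer cells of a type and less RNA per cell cannot be told apart.

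Of 16369 genes tested, 1395 (8.52%) were called at an adjusted p under 0.05 in edgeR, 760 higher without leucine than without arginine (4.64% of genes tested) and 635 lower (3.88%). An unadjusted p under 0.05 was reached by 3598. The median size of a called log2 fold change was 0.47, and 32 called genes were higher and 27 lower by a log2 fold change of 1 or more. Scaling by library size alone turned this split to 610 higher and 781 lower and shifted the median gene to -0.04. Libraries of the same number deviated together from their group means, and with the number as a block 4362 genes were called (26.6%), 2350 higher and 2012 lower, among them all 1395. Without Gcn_Leu 2 the count fell to 710, and without Gcn_Arg 3 to 711. With only the 6 compared libraries in the fit it was 939. None of the 1395 had the other sign in any of the alternatives run, which reuse the same counts and so are no independent support.

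Both starved groups were also set beside the same 3 unstarved libraries, which the 2 comparisons share (21.8% of genes called without leucine and 28.0% without arginine). The 760 genes that were higher without leucine had a median log2 fold change of -0.44 against unstarved cells without arginine and of 0.06 without leucine. For the 635 lower genes those medians were 0.36 and -0.14.

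Rbm10, an RNA-binding regulator of alternative splicing, had the largest difference among the genes higher without leucine. It lies on chromosome X from 20617503 to 20650901 (plus strand, GRCm38). It stood at 31.6, 26.6 and 28.3 CPM in the Gcn_Arg libraries, at 87.4, 79.4 and 80.2 CPM in the Gcn_Leu libraries, and at 89.8, 88.0 and 82.9 CPM unstarved. All arginine-starved libraries lay far below the other 6, whose ranges overlapped. The difference was 2.86-fold (log2 1.51 ± 0.09, adjusted p = 2.92e-06). U2af1, the small subunit of the factor that recognises the 3′ splice site, stood at 71.1, 98.4 and 86.3 CPM without arginine and 151, 218 and 198 CPM without leucine (log2 1.15 ± 0.16, adjusted p = 0.00117). Its unstarved libraries (145, 196 and 187 CPM) again sat beside the leucine-starved ones.

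Tmem109, a membrane protein, and Rpp25l, a relative of a ribonuclease P subunit, lay on both sides of the unstarved level. Tmem109 stood at 15.7, 14.4 and 16.1 CPM without arginine, at 39.1, 44.6 and 37.6 CPM without leucine and at 33.7, 31.0 and 32.1 CPM unstarved. The 3 groups did not overlap, and the difference between the starved groups was 2.63-fold (log2 1.39 ± 0.10, adjusted p = 1.14e-05). Rpp25l was 2.26-fold higher without leucine (adjusted p = 7.48e-05), with log2 fold changes against unstarved cells of 0.38 without leucine and -0.80 without arginine. Ngdn, an eIF4E-binding protein, was 2.56-fold higher (61.8, 77.8 and 79.4 CPM without arginine against 160, 207 and 194 CPM without leucine, adjusted p = 8.1e-05). The other 7 of the 12 largest were Plekha2, a phosphoinositide-binding adaptor, the zinc finger gene Zfp13, Vav2, a guanine nucleotide exchange factor, Ccdc116, the adhesion molecule Ceacam1, Thsd1 and the cyclin gene Ccni, from 2.61-fold down to 2.11-fold. Vav2 was lower than unstarved in both groups (log2 -0.46 without leucine, adjusted p = 0.0046, and -1.63 without arginine, adjusted p = 4.3e-07). Ccdc116 (1.46 to 4.90 CPM in the starved libraries) and Thsd1 (2.06 to 7.32 CPM) were weakly expressed.

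Among the genes lower without leucine, Hps4, a subunit of a complex that builds lysosome-related organelles, came first. It stood at 37.9, 34.7 and 28.3 CPM without arginine, at 16, 14.9 and 13.5 CPM without leucine and at 23.2, 18.4 and 19.1 CPM unstarved. The unstarved libraries lay between the starved groups, with no overlap, and the starved groups differed 2.28-fold (log2 -1.19 ± 0.13, adjusted p = 0.000128). Scly, the lyase that recovers selenium from selenocysteine, and Prkab1, a regulatory subunit of the energy sensor AMPK, had the same order. Scly read 27.6, 29.2 and 25.2 CPM without arginine, 15.2, 13.2 and 13.1 CPM without leucine and 19.2, 19.3 and 16.7 CPM unstarved (1.98-fold, adjusted p = 0.000128). Prkab1 read 55.2, 62.9 and 52.8 CPM, 31.1, 28.8 and 27.9 CPM and 41.0, 38.7 and 38.1 CPM in that order (1.95-fold, adjusted p = 7.48e-05). Both genes were above the unstarved level without arginine and below it without leucine, each time past the test.

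Other genes had risen in both starvations and less so without leucine. Slc2a4, the insulin-responsive glucose transporter GLUT4, went from 1.43, 1.24 and 1.22 CPM unstarved to 3.15, 4.39 and 3.20 CPM without leucine and 6.63, 7.89 and 7.84 CPM without arginine. No library of one group reached another group's range, and the starved groups differed 2.08-fold (log2 -1.06 ± 0.16, adjusted p = 0.00132). Fam83a had the same pattern at log2 fold changes against unstarved of 3.07 without leucine and 4.06 without arginine. Its difference between the starved groups (-0.98, adjusted p = 0.0161) was not called without Gcn_Leu 3 or Gcn_Arg 2 (highest adjusted p = 0.0666). Fgf5, a growth factor that marks primed pluripotency, was near its unstarved level without leucine (1.82, 1.63 and 1.82 CPM against 1.98 to 2.00) and higher without arginine (3.61, 3.88 and 4.41 CPM, log2 of the difference -1.16, adjusted p = 0.000686). Zfp423, a zinc finger transcription factor, stood at 35.0, 53 and 50.7 CPM without arginine, 35.9, 45.3 and 42.6 CPM unstarved and 20.6, 24.9 and 25.9 CPM without leucine, the only one of the 3 groups that stood apart (log2 -0.96 ± 0.15, adjusted p = 0.00222). Rfesd, Abtb2 and Zfp946 completed the stable part of the 12, at log2 values from -1.14 to -0.97. Foxd1 (-1.06) lost its call without Gcn_Leu 1, Gcn_Leu 3, Gcn_Arg 2 or Gcn_Arg 3 (highest adjusted p = 0.113), and Egr1 (-0.95) without Gcn_Leu 1, Gcn_Leu 3 or Gcn_Arg 1 (highest 0.111).

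**Figure D1:**
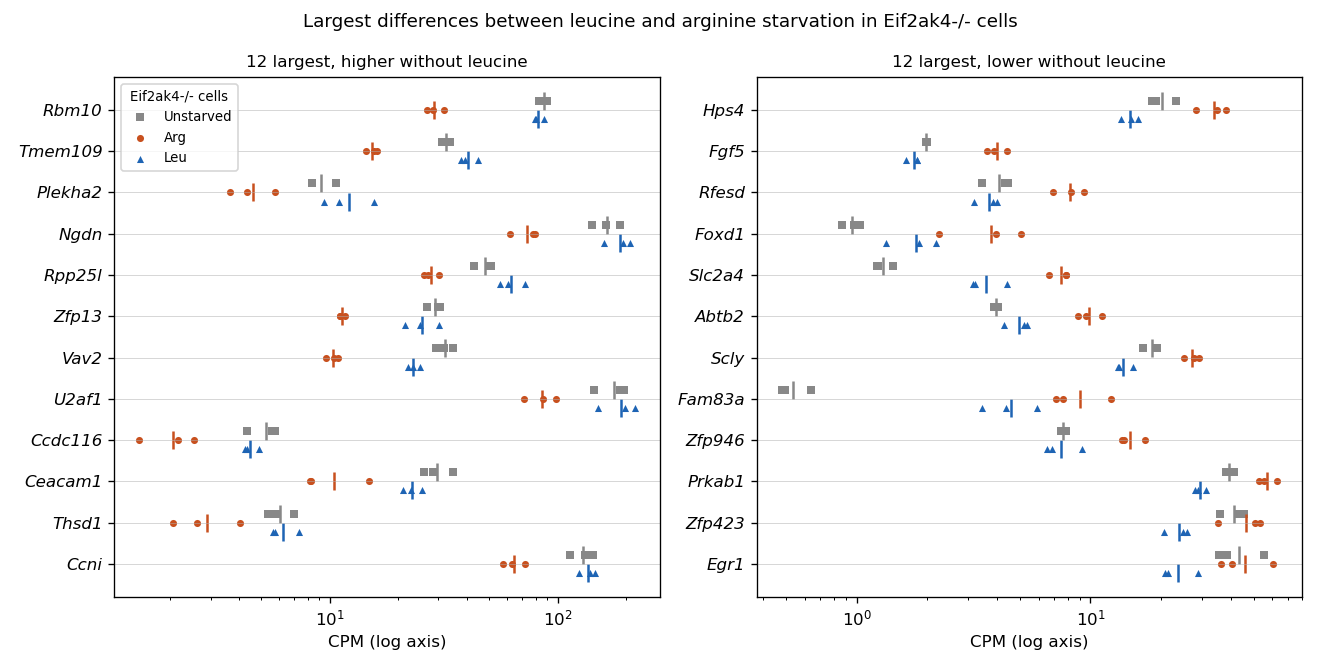
CPM (log axis) of the 12 genes with the largest differences in each direction in the 9 Eif2ak4-/- libraries, with squares for unstarved, circles for arginine-starved (Arg) and triangles for leucine-starved (Leu) libraries and a tick at the mean of 3. Circles and triangles do not overlap for any of the 24 genes, as the choice of genes required. The triangles of Rbm10 (79.4 to 87.4 CPM) sit beside the squares, while those of Zfp423 (20.6 to 25.9 CPM) stand apart from both other groups.

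The 37 gene lists were described by how many members were called and by the median log2 fold change of the tested members, which over all genes tested was 0. The most members in proportion were called in the lists of arginine-serine-rich (SR) splicing factors (12 of 23), ERK feedback genes (9 of 20) and ER chaperones (9 of 21), against 8.52% of all genes. The SR list also holds kinases, Rbm10 and other genes that are not SR splicing factors. All lists were chosen with earlier results of these data known, so their ranking is a description only. Counts in each direction are to be read beside 4.64% higher and 3.88% lower over all genes tested. With the block those shares were 14.4% and 12.3%. The lists of tRNA synthetases (20 tested), histone transcripts (19), fibroblast markers (9) and interferon response (9) had 0 called. At an unadjusted p under 0.05 in edgeR those 4 lists held 4, 1, 1 and 2 genes. DESeq2 called 2, 1, 0 and 1, limma-voom called 0 in each, and with the block 8, 1, 3 and 2 were called.

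**Figure D2:**
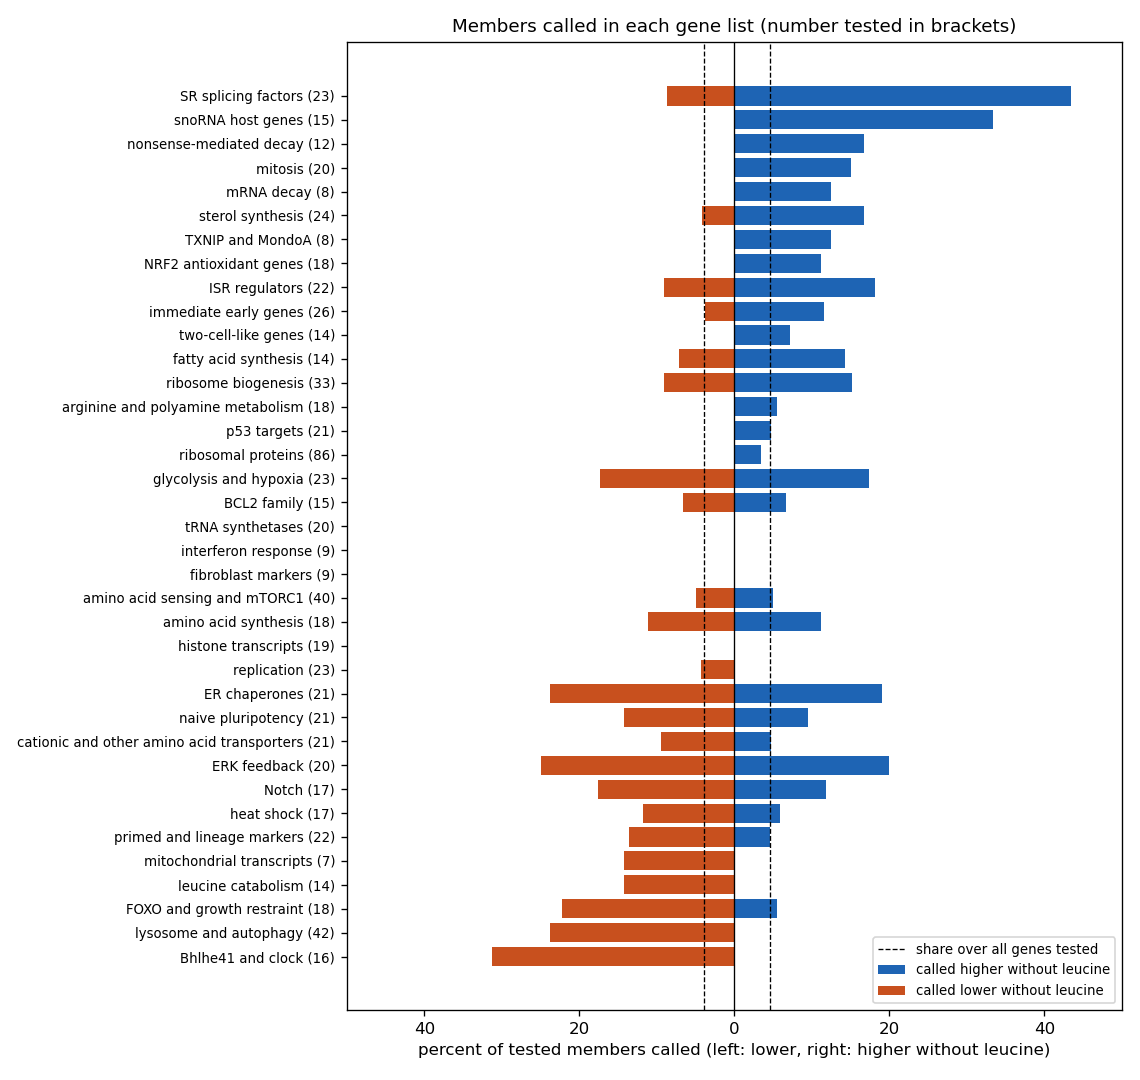
Percent of the tested members of each gene list that were called in the leucine against arginine comparison, to the right when higher without leucine and to the left when lower, with the number tested in brackets and dashed lines at the share over all genes tested (4.64% and 3.88%). SR splicing factors and snoRNA host genes reach farthest right, and the clock genes, with 5 of 16 lower and 0 higher, farthest left.

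SR splicing factors bind exonic enhancers and set splice site choice, and their kinases, RNA-binding partners and Mat2a, an S-adenosylmethionine synthetase whose own transcript is regulated by splicing, shared the list. Of 23 tested, 10 were higher without leucine and 2 lower, with a median of 0.27, and no single left-out library moved that count beyond 1.5 times. Srsf11 stood at 171, 151 and 172 CPM without arginine, 250, 258 and 276 CPM without leucine and 273, 285 and 281 CPM unstarved. Only the arginine-starved libraries were low (log2 of the difference 0.67 ± 0.08, adjusted p = 0.000357). Srsf4 repeated this at 85.1, 88.4 and 68.9 CPM against 139, 127 and 110 CPM (0.63 ± 0.12, adjusted p = 0.00434). Mat2a fell in both starvations, from 416, 415 and 435 CPM to 202, 189 and 227 CPM without leucine and 135, 129 and 149 CPM without arginine (log2 of the difference 0.58 ± 0.09, adjusted p = 0.00184). The remaining 6 higher members, named after their values were seen, were the splicing factors Srsf3, Srsf5, Srsf6, Srsf7 and Tra2a and the related Rsrp1 (0.34 to 0.56). The lower ones were the SR protein kinase gene Clk2 (-0.43) and Rbm5, an RNA-binding relative of Rbm10 (-0.56), also named afterwards.

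Small nucleolar RNA host genes, whose introns carry the guide RNAs for ribosomal RNA modification, had 5 of 15 higher and 0 lower (median 0.34). With the block 10 were higher and 1 lower. Snhg12 stood at 13.8, 15.8 and 14.8 CPM without arginine, 19.7, 28.3 and 28.8 CPM without leucine and 29.7, 30.8 and 36.6 CPM unstarved (log2 of the difference 0.80 ± 0.14, adjusted p = 0.00393). The leucine-starved libraries lay between the other groups without overlap, and were not called against the unstarved ones (adjusted p = 0.0989). Dancr, which makes a long non-coding transcript, was down in both starvations and less so without leucine (8.19, 11 and 11 CPM against 5.27, 5.87 and 7.58 CPM and 21.6 to 28.0 CPM unstarved). Snhg1 was higher without leucine (132, 175 and 168 CPM) than without arginine (91.1, 118 and 111 CPM) or unstarved (75.5, 96.4 and 111 CPM). The call of Dancr was lost without Gcn_Leu 2, Gcn_Leu 3, Gcn_Arg 1 or Gcn_Arg 2 (highest adjusted p = 0.0675), and those of Snhg1 and Snhg3 without Gcn_Leu 2, Gcn_Leu 3, Gcn_Arg 1, Gcn_Arg 3 or Gcn_Unstarved 2 (highest 0.12 and 0.113). Without Gcn_Leu 2, Gcn_Leu 3 or Gcn_Arg 1 the list kept 2 higher members, and without Gcn_Arg 3 or Gcn_Unstarved 2 it kept 3.

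Ribosome biogenesis genes were called in both directions. Of 33 tested, 5 were higher without leucine and 3 lower (median 0.07, and 13 and 4 with the block). Over all genes tested the shares were 4.64% and 3.88%, or 14.4% and 12.3% with the block. Nolc1, a nucleolar chaperone of snoRNPs, stood at 372, 364 and 326 CPM without arginine, 725, 699 and 649 CPM without leucine and 525, 565 and 502 CPM unstarved. The groups did not overlap, with the unstarved cells in the middle (1.95-fold between the starved groups, adjusted p = 7.48e-05). Wdr74, needed for large subunit maturation, was low only without arginine (76.6, 97.9 and 91.4 CPM against 145, 164 and 146 CPM, log2 0.77, adjusted p = 0.000458). Nop14, of the small subunit processome, was instead low only without leucine. It stood at 180, 167 and 178 CPM without arginine, 165, 171 and 159 CPM unstarved and 101, 90.3 and 101 CPM without leucine (log2 -0.85 ± 0.08, adjusted p = 7.48e-05). Rrp9, a protein of the U3 snoRNP, fell in both and farther without leucine (233, 257 and 257 CPM unstarved, 146, 170 and 150 CPM without arginine, 86.1, 92.3 and 83.3 CPM without leucine, log2 of the difference -0.83, adjusted p = 0.000126). Of 86 ribosomal protein genes 3 were higher and 0 lower (median 0.13), both below the share over all genes, and 25 and 5 with the block. They include Rps10 (0.47) and Rps7 (0.34), and of the list 0 were called without Gcn_Leu 2 and 1 without any of the 3 Gcn_Arg libraries. Ribosomal protein genes have many near-identical pseudogene copies, and the counting rule for shared reads is not given in the sources used here, so these 3 are uncertain.

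Cholesterol synthesis genes had 4 of 24 higher without leucine and 1 lower (median 0.06, 9 and 4 with the block). These counts stand beside 4.64% and 3.88% of all genes tested (14.4% and 12.3% with the block). Cyp51, the lanosterol demethylase, stood at 54.3, 45.9 and 45.9 CPM without arginine, 83.7, 75.4 and 84.3 CPM without leucine and 75.4, 70.1 and 75.3 CPM unstarved. Leucine-starved and unstarved libraries met, above the arginine-starved ones (log2 0.74 ± 0.09, adjusted p = 0.000357). Sc5d, a later desaturase, was above the unstarved level without leucine (32.4, 35.3 and 39.4 CPM against 26.2 to 27.6 CPM) and read 24.0, 24.3 and 23.1 CPM without arginine (log2 of the difference 0.58, adjusted p = 0.00195). Insig1, which retains the sterol sensor in the ER and so restrains the pathway, had the opposite order. It read 121, 107 and 114 CPM without arginine, 89.9, 82.8 and 89.6 CPM unstarved and 65.8, 57.6 and 68.0 CPM without leucine (log2 -0.84 ± 0.09, adjusted p = 0.000126).

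Fatty acid synthesis genes had 2 of 14 higher and 1 lower (5 and 3 with the block), beside the same shares of all genes. Srebf1, which encodes the transcription factor SREBP-1, stood at 65.9, 54.6 and 52.2 CPM without arginine and 103, 83.9 and 83.8 CPM without leucine (log2 0.65 ± 0.11, adjusted p = 0.00346). Its unstarved libraries, at 69.3 to 81.0 CPM, lay between. Elovl5, a fatty acid elongase, was low only without arginine (0.51, adjusted p = 0.00222). Fads2, a desaturase, was low only without leucine (36.3, 29.7 and 31.0 CPM against 50.3, 46.1 and 44.9 CPM, -0.54, adjusted p = 0.00368).

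ER chaperones, which fold secreted proteins, divided 4 higher to 5 lower of 21 (median 0.05). Pdia4, a protein disulfide isomerase, stood at 185, 179 and 186 CPM without arginine, 320, 332 and 316 CPM without leucine and 278, 290 and 276 CPM unstarved. Its starved groups lay on either side of the unstarved cells, with only the lower arginine-starved level past the test (log2 of the difference 0.81 ± 0.08, adjusted p = 7.48e-05). The lectin chaperone gene Calr (885, 876 and 775 CPM against 1220, 1250 and 1140 CPM) and Manf, a secreted ER stress protein (0.47, adjusted p = 0.00658), were also higher without leucine. Hyou1, a chaperone of the HSP70 family, was raised without arginine (518, 439 and 419 CPM against 341, 300 and 285 CPM without leucine and 330 to 384 CPM unstarved, -0.57, adjusted p = 0.00443). Without Gcn_Leu 2 or Gcn_Arg 3 the list had 4 higher and 1 lower. Cytosolic heat shock genes had 1 of 17 higher and 2 lower (5 and 2 with the block). All genes tested had 4.64% higher and 3.88% lower (14.4% and 12.3% with the block). The 2 lower were Hsf1, which encodes the main heat shock transcription factor (70.4, 76.0 and 71.3 CPM against 57.8, 51.8 and 50.4 CPM, adjusted p = 0.00726), and the small heat shock gene Hspb8 (adjusted p = 0.00489). Hspa1b (0.89) lost its call without any library other than Gcn_Leu 1 and Gcn_Unstarved 1 (highest adjusted p = 0.145) and shares near-identical sequence with Hspa1a, so it is uncertain.

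**Figure D3:**
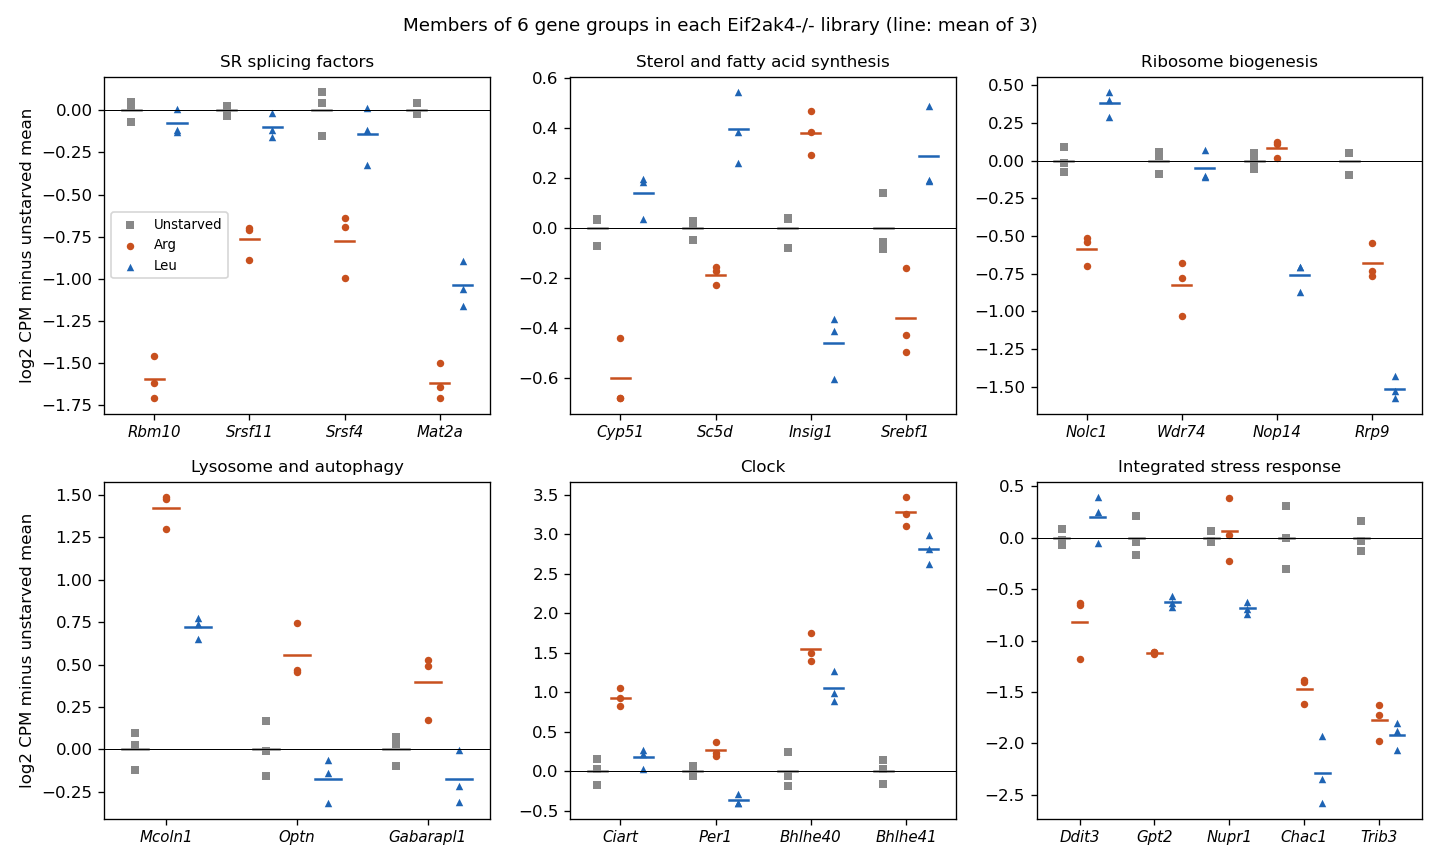
log2 CPM of members of 6 gene groups in each Eif2ak4-/- library minus the mean of the 3 unstarved libraries, with squares unstarved, circles arginine-starved, triangles leucine-starved and a line at the mean of 3. Circles lie lowest for Rbm10, Cyp51, Nolc1 and Ddit3, while triangles lie lowest for Nop14, Insig1, Per1 and Nupr1.

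The integrated stress response (ISR) is the programme of eIF2α kinases and ATF4. Of 22 ISR regulators 4 were higher without leucine and 2 lower (4 and 5 with the block), with a median of 0.03. Ddit3, which encodes the transcription factor CHOP, stood at 6.93, 9.99 and 10.1 CPM without arginine, 15.2, 20.6 and 18.7 CPM without leucine and 15.0, 16.7 and 15.5 CPM unstarved. Only the arginine-starved libraries were low, and the starved groups differed 2.03-fold (log2 1.02 ± 0.15, adjusted p = 0.00117). Gpt2, a mitochondrial alanine aminotransferase, was low in both, at 31.1, 31.5 and 31.4 CPM without arginine, 45.8, 42.7 and 43.8 CPM without leucine and 78.6, 66.0 and 60.5 CPM unstarved (log2 of the difference 0.49, adjusted p = 0.00765). Nupr1, a stress-induced chromatin protein, was low only without leucine (9.03, 8.75 and 9.46 CPM against 19.1, 12.5 and 14.9 CPM without arginine and 14.2 to 15.3 CPM unstarved, log2 -0.77 ± 0.14, adjusted p = 0.00403). Chac1, whose product breaks down glutathione, fell in both and farther without leucine (4.52, 3.84 and 6.06 CPM against 7.52, 8.82 and 8.70 CPM, from 18.7 to 28.5 CPM unstarved, log2 of the difference -0.78, adjusted p = 0.0211).

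Atf4 itself read 269, 281 and 273 CPM without arginine, 334, 346 and 319 CPM without leucine and 434, 407 and 384 CPM unstarved (log2 0.28 ± 0.08, adjusted p = 0.0486). That call was lost without any 1 of the 9 libraries in fits without the block (highest adjusted p = 0.191). With the block and all 9 libraries the adjusted p was 0.000707. The call of Chac1 was lost without Gcn_Leu 1, Gcn_Leu 2, Gcn_Arg 2 or Gcn_Arg 3 (highest 0.0691). Without Gcn_Leu 2 or Gcn_Arg 3 the list had 2 higher and 1 lower. Further ATF4 targets overlapped between the starved groups. These were the pseudokinase gene Trib3 (15.4 to 19.7 CPM without arginine, 14.5 to 17.4 CPM without leucine, from 55.7 to 68.0 CPM unstarved, adjusted p = 0.561), Asns, asparagine synthetase (305 to 361 CPM and 281 to 345 CPM, adjusted p = 0.628), and the leucine sensor gene Sesn2 (229 to 261 CPM and 212 to 251 CPM, adjusted p = 0.825).

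The promoters of the 2 called-lower ISR regulators are shown because each holds the core of the composite element that ATF4 binds, searched as TGATGNAA on both strands. The 200 bases before the RefSeq start (GRCm38.p6) are printed 5′ to 3′ on the gene's strand, with the match in capitals, for Chac1 (chr2:119351042-119351241, plus strand) and Nupr1 (chr7:126625471-126625670, minus strand).
Chac1: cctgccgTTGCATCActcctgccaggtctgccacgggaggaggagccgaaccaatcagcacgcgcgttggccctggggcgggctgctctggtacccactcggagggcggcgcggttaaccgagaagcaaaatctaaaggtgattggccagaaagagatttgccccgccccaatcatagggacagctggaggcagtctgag
Nupr1: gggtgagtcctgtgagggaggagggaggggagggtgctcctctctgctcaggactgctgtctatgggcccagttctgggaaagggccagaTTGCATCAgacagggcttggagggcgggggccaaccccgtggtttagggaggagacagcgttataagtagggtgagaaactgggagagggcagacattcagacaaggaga
The match begins 193 bases before the start in Chac1 and 110 in Nupr1. In windows from 250 bases before to 50 after the start, 6 of 20 ISR regulators with a RefSeq promoter held the letters, against 2.23% of the 11226 tested genes with one and 4.06% of all 27025 promoters. Of the 3 matched regulators called higher, 0 held them. The list was drawn from the programme of ATF4, so its share may exceed that of all genes by this choice alone. A match is a description of letters, not of binding.

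Genes of amino acid handling were called in both directions, in small counts to be read beside the shares over all genes tested. Those shares were 4.64% higher and 3.88% lower, or 14.4% and 12.3% with the block. Of 21 amino acid transporters 1 was higher without leucine and 2 lower (median -0.21), and with the block 3 and 10. Slc43a1, a transporter of leucine and other large neutral amino acids, stood at 10.9, 10.5 and 9.88 CPM without arginine, 5.71, 6.28 and 6.16 CPM without leucine and 4.49 to 6.08 CPM unstarved. It was raised only without arginine (log2 of the difference -0.78 ± 0.13, adjusted p = 0.00244). Slc38a4, a sodium-coupled transporter of neutral amino acids, had the reverse call (151, 124 and 141 CPM against 184, 174 and 191 CPM, both under the 260 to 298 CPM unstarved). It lost the call without Gcn_Leu 3, Gcn_Arg 2 or Gcn_Arg 3 (highest adjusted p = 0.0886), which left 0 higher and 1 lower. Pqlc2, the lysosomal exporter of cationic amino acids (-0.38), lost it without any of these or Gcn_Leu 2 (highest 0.103). The main importer of arginine, Slc7a1, read 118, 91.7 and 95.1 CPM without arginine and 89.5, 67.9 and 79.4 CPM without leucine (-0.37 ± 0.13, adjusted p = 0.107, or 0.00164 with the block). The leucine exchanger gene Slc7a5 read 362, 334 and 301 CPM and 296, 259 and 261 CPM (-0.29 ± 0.10, adjusted p = 0.0846, or 0.000432 with the block). Slc7a3, a further arginine carrier, overlapped (236 to 270 CPM and 237 to 285 CPM, adjusted p = 0.771).

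Among 40 genes of amino acid sensing and mTORC1, 2 were higher and 2 lower (6 and 9 with the block). Castor1, the cytosolic arginine sensor, stood at 25.4, 28.1 and 28.8 CPM without arginine, 41.6, 47.6 and 43.0 CPM without leucine and 36.5, 39.2 and 40.8 CPM unstarved. Against unstarved cells it was lower without arginine (adjusted p = 0.00118) and not called without leucine (adjusted p = 0.181), and the starved groups did not overlap (log2 of the difference 0.69 ± 0.09, adjusted p = 0.000602). Nprl3, a subunit of the GATOR1 complex that turns Rag GTPases off, was raised only without arginine (20.7, 22.1 and 19.2 CPM against 13.0, 12.9 and 13.0 CPM without leucine and 11 to 13.9 CPM unstarved, log2 of the difference -0.67 ± 0.11, adjusted p = 0.00211). Seh1l, of GATOR2, and Fnip1, a folliculin partner, carried the other 2 calls (0.34 and -0.39). Seh1l kept its call only where the library left out was Gcn_Leu 1 or Gcn_Unstarved 1, and Fnip1 only where it was Gcn_Leu 3, Gcn_Arg 2 or Gcn_Unstarved 1 (highest adjusted p = 0.123 and 0.165). Without Gcn_Leu 2, Gcn_Arg 1, Gcn_Arg 3, Gcn_Unstarved 2 or Gcn_Unstarved 3 the list had 1 called in each direction.

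Leucine catabolism had 0 of 14 higher and 2 lower (1 and 5 with the block). Slc25a44, the mitochondrial importer of branched-chain amino acids, rose in both starvations and less without leucine. It went from 61.7, 55.6 and 55.2 CPM unstarved to 116, 119 and 108 CPM without leucine and 176, 206 and 184 CPM without arginine (log2 of the difference -0.72 ± 0.09, adjusted p = 0.000304). Mccc1, of the leucine breakdown enzyme methylcrotonyl-CoA carboxylase, was raised only without arginine (27.4, 27.0 and 26.6 CPM against 21.2, 20.3 and 21.1 CPM, -0.37, adjusted p = 0.015), a call lost without Gcn_Leu 2 (adjusted p = 0.068). Amino acid synthesis had 2 higher and 2 lower of 18. Aldh18a1, which starts proline synthesis from glutamate, was 112, 93.1 and 86.0 CPM without arginine, 78.9, 69.8 and 65.4 CPM unstarved and 59.5, 54.2 and 51.1 CPM without leucine, above the unstarved level in one starvation and below it in the other (log2 of the difference -0.82 ± 0.11, adjusted p = 0.000589). Psat1, of serine synthesis (0.30), and Aldh1l2, a folate enzyme (-0.81), lost their calls without any library other than Gcn_Unstarved 3 for Psat1, and Gcn_Arg 2 or Gcn_Unstarved 1 for Aldh1l2 (highest adjusted p = 0.0998 and 0.161). Without any Gcn_Leu library, Gcn_Arg 1, Gcn_Arg 3 or Gcn_Unstarved 2, 1 was called in each direction. The synthetases that charge the 2 starved amino acids overlapped, Lars at 239 to 293 CPM without arginine and 228 to 279 CPM without leucine (adjusted p = 0.857) and Rars at 274 to 311 CPM and 239 to 294 CPM (adjusted p = 0.403). Of 18 genes of arginine and polyamine metabolism, Oaz2, an inhibitor of polyamine synthesis, was called (0.33, adjusted p = 0.0385), and with any library but Gcn_Arg 2 left out it was not (highest adjusted p = 0.199). The list had 3 higher and 1 lower with the block.

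Lysosome and autophagy genes had 10 of 42 lower without leucine and 0 higher (median -0.14, and 19 lower and 4 higher with the block). Mcoln1, the lysosomal calcium channel, rose in both starvations. It went from 21.4, 18.4 and 20.4 CPM unstarved to 34.3, 33.5 and 31.5 CPM without leucine and 56.1, 55.7 and 49.4 CPM without arginine, 3 ranges without overlap (log2 of the difference -0.70 ± 0.09, adjusted p = 0.000467). The autophagy receptor gene Optn was raised only without arginine (13.8, 11.4 and 11.3 CPM against 7.49, 6.6 and 7.87 CPM without leucine and 7.38 to 9.26 CPM unstarved, -0.73, adjusted p = 0.00393). Gabarapl1, an ATG8 protein of autophagosomes, did the same (33.1, 32.3 and 25.9 CPM against 22.9, 19.7 and 18.5 CPM, -0.59, adjusted p = 0.00685). Gpnmb, a lysosomal glycoprotein at 0.988 to 2.59 CPM, lost its call without Gcn_Leu 1, Gcn_Leu 3, Gcn_Arg 1 or Gcn_Arg 2 (highest adjusted p = 0.0917). The count rested on single libraries, with 6 lower without Gcn_Leu 2, 3 without Gcn_Leu 3, 5 (and 1 higher) without Gcn_Arg 1 and 4 without Gcn_Arg 2.

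Clock genes had 5 of 16 lower and 0 higher (median -0.09, the same 5 and 0 in number with the block). Ciart, a repressor in the clock loop, stood at 28.3, 30.9 and 26.5 CPM without arginine, 17.4, 18 and 15.3 CPM without leucine and 16.7, 15.2 and 13.2 CPM unstarved. It was raised without arginine (log2 of the difference -0.76 ± 0.11, adjusted p = 0.00114). Per1, another repressor, read 37.5, 42.5 and 38.6 CPM without arginine, 34.2, 33.0 and 31.3 CPM unstarved and 26.9, 24.7 and 24.9 CPM without leucine, so that the starved groups lay on opposite sides of the unstarved cells (-0.63 ± 0.09, adjusted p = 0.000787). Bhlhe41 and Bhlhe40, paired repressors that bind E boxes, rose in both starvations and less without leucine. Bhlhe41 went from 3.61, 3.18 and 3.92 CPM to 21.9, 28.2 and 25 CPM without leucine and 30.6, 39.2 and 34.0 CPM without arginine (-0.47 ± 0.12, adjusted p = 0.0284), and Bhlhe40 from 15.5 to 20.9 CPM to 32.6 to 42.3 CPM and 46.1 to 59.0 CPM (-0.49, adjusted p = 0.033). The call of Bhlhe41 was lost without Gcn_Leu 1, Gcn_Leu 3, Gcn_Arg 2 or Gcn_Arg 3 (highest adjusted p = 0.0948), and that of Bhlhe40 without Gcn_Leu 2, Gcn_Leu 3, Gcn_Arg 1, Gcn_Arg 3 or Gcn_Unstarved 2 (highest 0.125). The list had 3 lower without any 1 of the Gcn_Leu libraries or Gcn_Arg 1, and 2 without Gcn_Arg 3.

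The E box CACGTG is the site of MiT/TFE, BHLHE40 and BHLHE41 and the clock activators, so promoters that hold it are shown for members described above. Printed in the same way are Ciart (chr3:95882229-95882428, minus strand), Bhlhe41 (chr6:145865421-145865620, minus strand) and Mcoln1 (chr8:3500319-3500518, plus strand), with each E box in capitals.
Ciart: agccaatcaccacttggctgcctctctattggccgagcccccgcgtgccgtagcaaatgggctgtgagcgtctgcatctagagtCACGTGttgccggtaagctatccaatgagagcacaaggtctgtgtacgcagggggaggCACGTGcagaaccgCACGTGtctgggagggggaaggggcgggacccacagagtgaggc
Bhlhe41: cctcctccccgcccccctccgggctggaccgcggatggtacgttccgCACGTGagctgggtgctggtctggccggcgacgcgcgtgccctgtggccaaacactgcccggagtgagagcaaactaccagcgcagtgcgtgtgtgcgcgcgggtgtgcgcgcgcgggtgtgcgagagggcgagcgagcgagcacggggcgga
Mcoln1: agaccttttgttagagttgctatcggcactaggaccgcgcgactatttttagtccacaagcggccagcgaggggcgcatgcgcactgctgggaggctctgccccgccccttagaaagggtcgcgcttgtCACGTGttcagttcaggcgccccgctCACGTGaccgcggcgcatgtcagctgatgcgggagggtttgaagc
Ciart holds 3 E boxes, 116, 58 and 44 bases before the start, Mcoln1 holds 2, 71 and 45 bases before it, and Bhlhe41 holds 1, 153 bases before it. In the windows of 250 bases before to 50 after the start, 3 of the 4 called-lower clock genes with a RefSeq promoter held an E box, against 5 of 14 (35.7%) of the whole clock list. Ciart and Bhlhe41 are among those 3. The window of the other lies at a start inside its gene, and so it is not printed. Of the 9 called-lower lysosome and autophagy genes 2 held one (22.2%), against 9 of 33 (27.3%) of that whole list. Over all calls, 15.9% of 492 genes lower without leucine held one, against 10.5% of 612 higher genes, 10.2% of all 11226 tested genes with a promoter and 7.24% of all promoters. The clock and lysosome lists belong to programmes of factors that bind this site. Their shares may thus exceed that of all genes by this choice alone. The called-lower genes were picked from these same data. Again a match describes letters, not binding. No search was made for degenerate sites, and genes with no match may hold others.

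Signalling and pluripotency genes changed in both directions. ERK feedback genes had 4 of 20 higher and 5 lower (2 and 3 without Gcn_Leu 3, 1 and 4 without Gcn_Arg 3). Fgf18, a growth factor, was low without arginine and less so without leucine (2.25, 2.91 and 2.37 CPM against 4.73, 4.10 and 4.18 CPM, with 5.43 to 6.22 CPM unstarved, 0.78, adjusted p = 0.0073), a call lost without the 3 libraries numbered 1 (adjusted p = 0.0569). Lif (0.61) lost its call without Gcn_Leu 2 or Gcn_Arg 3 (highest adjusted p = 0.0839), and Phlda1 (-0.73) without Gcn_Leu 3 (adjusted p = 0.0507). Among 17 Notch pathway genes, 2 were higher and 3 lower (2 and 1 without Gcn_Leu 2, 4 and 5 with the block). The effector gene Hes1 rose in both starvations, to 62.7, 67.8 and 60.2 CPM without leucine and 91.7, 104 and 91.4 CPM without arginine from 41.8, 48.6 and 47.8 CPM (log2 of the difference -0.59 ± 0.09, adjusted p = 0.00168). Lfng, which glycosylates Notch receptors, was higher without leucine (12.4, 12.6 and 14.1 CPM against 8.92, 8.62 and 7.97 CPM, 0.62, adjusted p = 0.00811).

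Of 21 genes of naive pluripotency 2 were higher and 3 lower (1 and 2 without Gcn_Arg 2, 5 and 6 with the block). Sall4, a zinc finger factor of stem cells, was raised only without arginine, at 565, 563 and 518 CPM, against 320, 286 and 282 CPM without leucine and 356, 346 and 319 CPM unstarved (log2 of the difference -0.89 ± 0.09, adjusted p = 7.48e-05). Klf5 was likewise raised only without arginine (276, 306 and 281 CPM against 204, 208 and 204 CPM, -0.49, adjusted p = 0.00393). Zfp42 (Rex1) was higher only without leucine, at 1650, 1640 and 1740 CPM against 1320, 1200 and 1300 CPM (0.40 ± 0.08, adjusted p = 0.00903). Nodal, a TGF-β family ligand from the list of primed and lineage markers (1 of 22 higher and 3 lower, 4 and 4 with the block), was also high only without leucine. It stood at 162, 174 and 154 CPM, against 99.7, 107 and 99.5 CPM without arginine and 96.8, 110 and 104 CPM unstarved (0.68 ± 0.09, adjusted p = 0.000357). Gata2, a lineage transcription factor, rose in both starvations and less without leucine (13.3, 12.5 and 9.75 CPM against 22.4, 20.8 and 15.5 CPM, from 3.03 to 4.18 CPM, log2 of the difference -0.74, adjusted p = 0.0108). Nanog (0.36) lost its call without Gcn_Leu 3 or Gcn_Arg 2 (highest adjusted p = 0.0669), and Otx2 (-0.54) without 5 single libraries (Gcn_Leu 2, Gcn_Leu 3, Gcn_Arg 1, Gcn_Arg 2 and Gcn_Unstarved 2, highest 0.122).

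The same contrast in cells with GCN2 called 1615 of 16140 genes (10.0%), 847 higher without leucine (5.25%) and 768 lower (4.76%). With the block it called 3328 (20.6%), and without Wt_Leu 2, Wt_Leu 3, Wt_Arg 2 or Wt_Arg 3 it called 1023, 987, 871 and 1022. Called in both genotypes in the same direction were 743 genes, 53.3% of the calls without GCN2 and 46.0% of the wild-type calls, and 1 gene was called in opposite directions. The difference between the genotypes was tested as an interaction over all 18 libraries, and 10 of 16924 genes were called (0.0591%), 8 with a greater (0.0473%) and 2 with a smaller (0.0118%) leucine minus arginine value without GCN2. At an unadjusted p under 0.05 there were 1003. With the block 429 were called (2.53%, in the 2 directions 1.42% and 1.12%), and DESeq2 called 79.

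**Figure D4:**
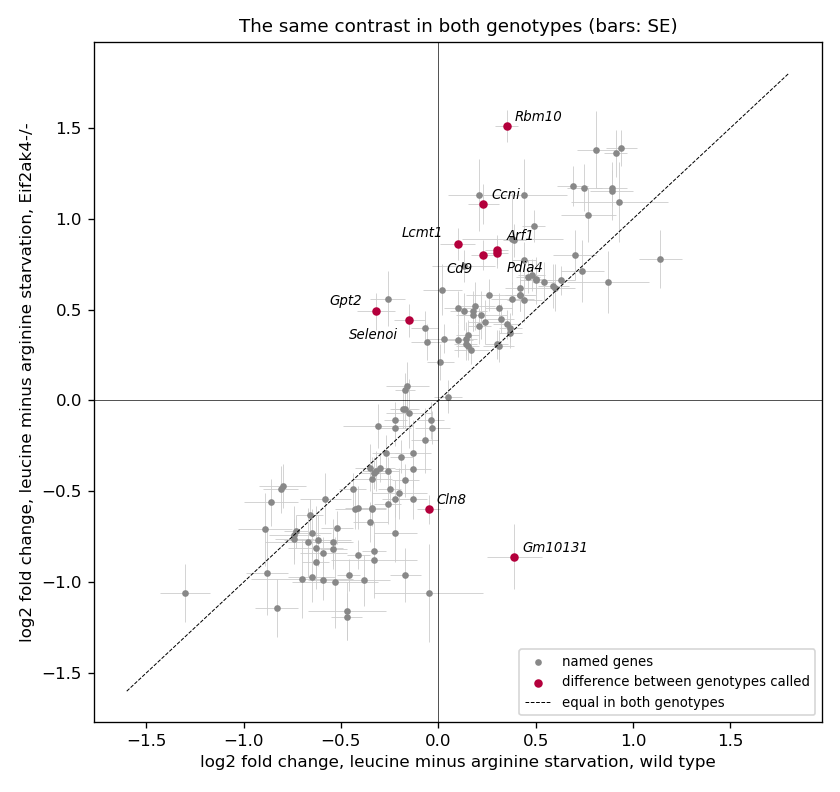
log2 fold change of leucine against arginine starvation in Eif2ak4-/- cells (vertical axis) and in wild-type cells (horizontal axis) for the named genes, with bars of 1 SE and a dashed line where both are equal. Rbm10, at 1.51 without GCN2 and 0.35 in wild type, lies farthest above the line among the 10 genes called between genotypes, and Gm10131, at -0.86 and 0.39, farthest below it.

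Of these 10 genes, only Rbm10 was called in all 18 alternatives run. In wild-type libraries it stood at 65.5, 63.0 and 65.9 CPM without arginine, 79.3, 83.0 and 85.4 CPM without leucine and 89.8, 85.6 and 89.4 CPM unstarved, scaled within that genotype's own table. Both genotypes were lowest without arginine, and the starved groups lay closer together with GCN2 (leucine minus arginine 0.35 ± 0.06 in wild type, interaction 1.16 ± 0.11, adjusted p = 6.2e-06, or 1.11e-09 with the block). Pdia4, Cd9, a tetraspanin of the cell surface, and Arf1, a GTPase of Golgi vesicle transport, were higher without leucine past the test in both genotypes, with the larger difference without GCN2. Cd9 stood at 133, 121 and 125 CPM without arginine and 213, 227 and 222 CPM without leucine in the Eif2ak4-/- cells, and at 215, 222 and 226 CPM and 257, 270 and 249 CPM in wild type (interaction 0.57 ± 0.10, adjusted p = 0.0314). Ccni differed in the Eif2ak4-/- cells (72.0, 57.7 and 63.0 CPM without arginine against 146, 138 and 124 CPM without leucine) more than in wild type (128, 139 and 134 CPM against 141, 173 and 157 CPM, adjusted p = 0.0821, interaction 0.85 ± 0.15, adjusted p = 0.0335). Gpt2 differed in opposite senses, higher without leucine in the Eif2ak4-/- cells and at -0.32 in wild type (179, 195 and 197 CPM without arginine against 144, 157 and 156 CPM without leucine, adjusted p = 0.0519), with an interaction of 0.81 ± 0.15 (adjusted p = 0.0376). Cln8, a membrane protein of the ER involved in sorting lysosomal enzymes, was lower without leucine in the Eif2ak4-/- cells (63.8, 65.8 and 60.6 CPM against 93.5, 103 and 92.7 CPM) and stood at 90.7, 89.6 and 93.0 CPM against 94.1, 93.8 and 94.9 CPM in wild type (interaction -0.56 ± 0.10, adjusted p = 0.0335). Except for Rbm10, these calls were lost without any 1 of Gcn_Leu 2, Gcn_Arg 2, Gcn_Arg 3, Wt_Leu 1, Wt_Leu 3, Wt_Arg 1, Wt_Arg 2 or Wt_Arg 3, each of which left 1 call, without Wt_Leu 2 there were 5, and without Gcn_Arg 1 there were 24.

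**Figure D5:**
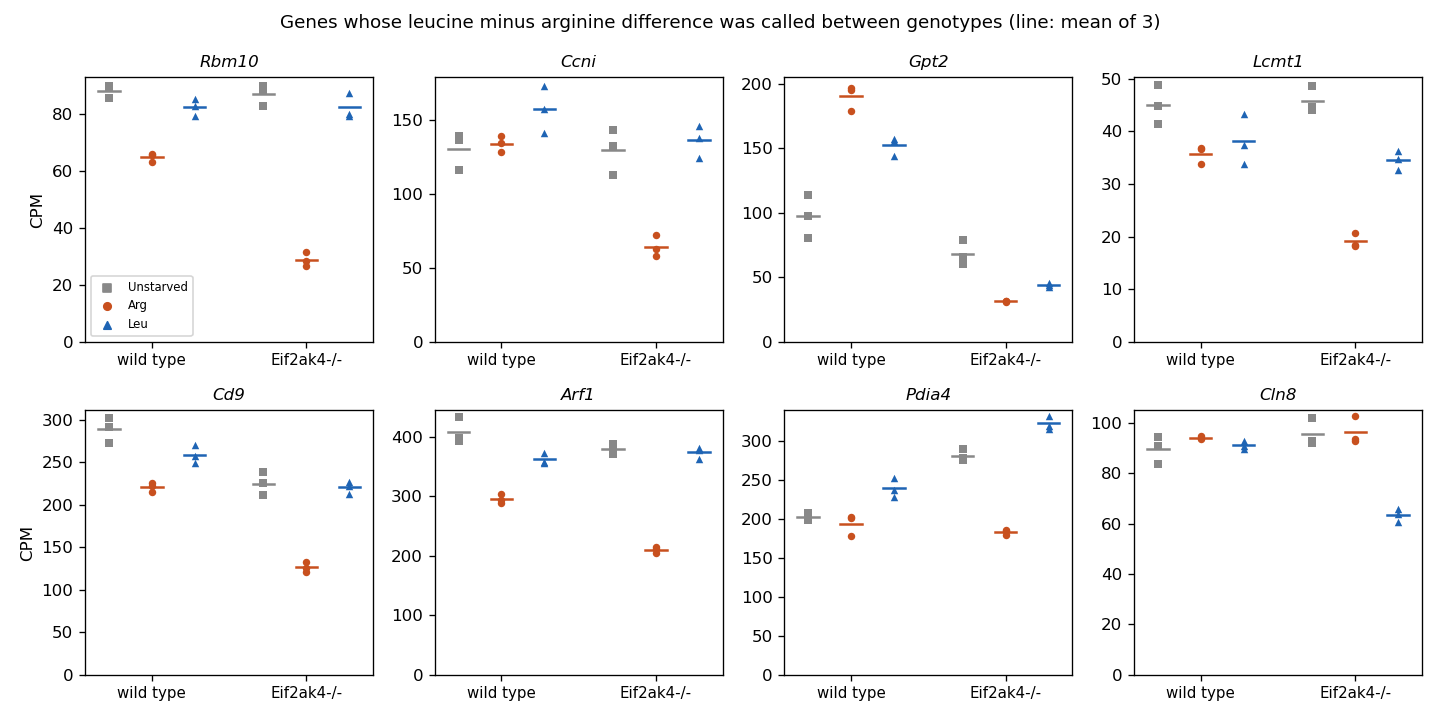
CPM in each of the 18 libraries for 8 of the 10 genes called between genotypes, scaled within each genotype, with squares unstarved, circles arginine-starved, triangles leucine-starved and a line at the mean of 3. The circles of Rbm10 without GCN2 (26.6 to 31.6 CPM) lie far below those of wild type (63.0 to 65.9 CPM), and for Cln8 only the triangles without GCN2 (60.6 to 65.8 CPM) are low.

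Among the lists, the wild-type contrast called 15 of 23 members of the SR list higher and 1 lower. It called 12 of 42 lysosome and autophagy genes lower and 1 higher, and 6 of 16 clock genes lower and 0 higher. Over all genes tested in wild type 5.25% were called higher and 4.76% lower. Medians of the same lists were 0.35, -0.14 and -0.23 in wild type, against 0.27, -0.14 and -0.09 without GCN2. The interaction called Rbm10 of the SR list, Gpt2 of the ISR and amino acid synthesis lists and Pdia4 of the ER chaperones, and 0 members of the other lists. With the block it called 4 of 33 ribosome biogenesis genes with a greater and 3 with a smaller value, and 3 of 23 of the glycolysis list in each direction. These were the lists with the most such calls. Over all genes the shares with the block were 1.42% and 1.12%.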

How the data were processed

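RNA was sequenced from 18 libraries, 3 in each of 6 groups, from 1 µg of RNA with a directional poly(A) kit and paired reads of 43 bp, per the labels' protocols. The authors deposited raw counts per gene, 1 table for each genotype, and both tables were used. Per the submitters' processing notes, the tools included STAR 2.7.4a and HTSeq, and the build was GRCm38. Which annotation release was counted, and whether strand was used, is not given in the sources used here. Counting without strand would mix reads of overlapping and antisense genes, and reads of near-identical copies are uncertain. GENCODE vM21 gave symbols and positions for 55230 of 55471 identifiers.

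Counts were analysed in R 4.3.3 with edgeR 4.0.16 (filterByExpr, TMM scaling, robust quasi-likelihood test, Benjamini-Hochberg adjustment, called at an adjusted p under 0.05). The contrast of Gcn_Leu and Gcn_Arg was fitted on the 9 Gcn libraries, and the Wt contrast on the 9 Wt libraries. The difference between genotypes was fitted on all 18. All log2 fold changes are leucine minus arginine starvation unless another group is named, with SE from the fit and 3 libraries in each group. The test was checked on simulated counts. It recovered 24 of 50 log2 changes of 0.5 and 49 of 50 of 1, with 17 false calls among 16369 genes. A gene not called may thus still differ by about 0.5, and a weakly expressed one by more. In the Eif2ak4-/- contrast Slc7a11, at a mean of 0.301 CPM, was not called at -0.83 ± 0.47 (edgeR adjusted p = 0.327). Inhbe, at a mean of 0.536 CPM, was not called at 0.74 ± 0.39 (edgeR adjusted p = 0.287). The simulation used the same dispersion for every gene and no deviation shared by libraries of the same number, unlike the data. Alternatives were DESeq2 1.42.0, limma-voom (limma 3.58.1), scaling by library size, other filters, other sets of libraries, thinning to 14777012 counts, a GC correction, a replicate block, and leaving out each library. Libraries held 14.8 M to 38.8 M counts, at which 3 counts equal 0.0773 to 0.203 CPM. Their number limits the precision.

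The correlation of deviations from the group means was 0.52, 0.46 and 0.33 for Gcn_Leu and Gcn_Arg libraries of the same number, and 0.19 to 0.50 for either with the unstarved library of that number. Pairs of different number reached 0.24 (Gcn_Arg 2 with Gcn_Unstarved 3) and 0.23 (Gcn_Leu 2 with Gcn_Unstarved 3), above the same-number values of libraries 3 with their unstarved library (0.19 and 0.21). Between Gcn_Leu and Gcn_Arg pairs of different number lay at -0.42 to 0.01. The numbers were taken to pair the libraries because every same-number Gcn pair was over 0.1. This comes from the data, since the labels do not say what a number marks. The main fits and the fits with 1 library left out did not use the pairing. Calls described as lost without a library were lost in such unpaired fits. With the block and no library left out, all 1395 calls were kept. For Wt_Leu and Wt_Arg the correlation was 0.30, 0.20 and 0.32, and with the Wt_Unstarved library of the same number 0.05 to 0.23.

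Named were the 12 called genes with the largest difference in each direction (mean of at least 2 CPM, no overlap, no unnamed models), up to 4 called members of each list or 2 of the highest mean where none was called, a set of amino acid response genes, and up to 6 genes in each direction for the interaction. Genes beyond this rule were chosen after their values were seen. They are the splicing factors so described, Arf1 and Gm10131. The gene lists and the comparison were chosen with earlier results of these data known. Promoters come from RefSeq, of which 11226 matched tested genes. Counts of motifs used the first window of each symbol, which may lie at a start inside the gene. Of the 37 lists, Snhg4, Snhg16 and Dux were not matched. Some genes of these lists are not reported here.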

Additional observations from a re-analysis of the deposited data

Results flagged for a closer look

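The difference between leucine and arginine starvation itself differed between Eif2ak4-/- and wild-type cells, by the edgeR interaction test over 18 libraries, for 10 genes. Each value is the log2 difference without GCN2 minus that in wild type. It was 1.16 for Rbm10, 0.85 for Ccni, 0.81 for Gpt2, 0.76 for Lcmt1, a methyltransferase of protein phosphatase 2A, and 0.59 for Selenoi, an ethanolamine phosphotransferase. It was 0.57 for Cd9, 0.53 for Arf1, 0.51 for Pdia4, -0.56 for Cln8 and -1.25 for the unnamed gene model Gm10131. Lcmt1 stood at 18.4, 18.2 and 20.7 CPM without arginine and 32.7, 36.3 and 34.7 CPM without leucine in Eif2ak4-/- cells (adjusted p of the interaction = 0.0314), and its wild-type groups overlapped (36.6, 36.9 and 33.9 CPM, and 33.9, 43.4 and 37.4 CPM). Selenoi stood at 24.8, 26.2 and 27.3 CPM and 35.6, 35.5 and 35.1 CPM in Eif2ak4-/- cells (adjusted p of the interaction = 0.0476), with wild-type values of 48.0, 48.4 and 48.2 CPM and 43.7, 48.4 and 38.2 CPM that met. Gm10131 was weakly expressed, at 4.31 to 10.8 CPM in the starved Eif2ak4-/- libraries and 4.96 to 8.32 CPM in the wild-type ones (adjusted p = 0.0376). Genotype and culture history cannot be told apart in any of these differences.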

How the results depend on the processing

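The 1395 calls between leucine and arginine starvation without GCN2 became 939 with only the 6 compared libraries, of which 929 were shared. They became 2344 with all 18 libraries in the fit, 4362 with the replicate block and 5094 with the block and a GC correction. With thinned counts and the block, a setting added after seeing the data, they became 3928. Leaving out 1 library gave 710 to 1338. The 1615 wild-type calls became 3328 with the replicate block and 871 to 1258 with 1 library left out. The 10 interaction calls became 79 with DESeq2, 61 without a filter on low counts, 2 with the 12 starved libraries alone, 429 with the block and 1 to 24 with 1 library left out. The cause was not tested. No called gene among the 140 named had the other sign under an alternative, all of which reuse the same counts. Of those not called, Hist1h4i, Hist1h1c, Aars, Lars and Sesn2 lay on both sides of 0 with 1 library left out. Of the 140 named genes, 18 lost their call with the 6 compared libraries alone and 32 without Gcn_Arg 3. The block added 6 calls and removed 0. The block changed no other call of a named gene in the Eif2ak4-/- contrast. Genes near 0.0773 to 0.203 CPM lie at the limit of 3 counts in a library, and differences there were not detectable at this depth.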

Other observations

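Other gene groups held calls between the starvations without GCN2 as follows, beside 8.52% of all genes tested (26.6% with the block). Of 23 glycolysis and hypoxia genes 4 were higher without leucine and 4 lower. Gapdh, a glycolytic dehydrogenase, read 1470, 1530 and 1380 CPM without arginine, 1040, 1060 and 1020 CPM without leucine and 1300, 1350 and 1210 CPM unstarved (log2 -0.49, adjusted p = 0.00307). Pdk1, a kinase that restrains pyruvate oxidation, read 192, 169 and 181 CPM and 128, 110 and 121 CPM (-0.60, adjusted p = 0.00183). Ldha, lactate dehydrogenase, was higher without leucine (985, 1060 and 859 CPM against 682, 729 and 657 CPM, adjusted p = 0.00632). Gapdh and Ldha have near-identical pseudogene copies and are uncertain. The count was 2 and 3 without Gcn_Leu 2, Gcn_Unstarved 2 or Gcn_Unstarved 3, and 1 and 4 without Gcn_Arg 3.

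Of 20 mitosis genes 3 were higher and 0 lower (1 higher without Gcn_Arg 3, and 7 higher and 2 lower with the block). Aurkb, a kinase of chromosome segregation, was low without arginine (63.5, 64.9 and 62.4 CPM against 107, 102 and 93.8 CPM without leucine and 98.0 to 111 CPM unstarved, log2 of the difference 0.66, adjusted p = 0.000399). Of 21 p53 targets 1 was higher and 0 lower (7 and 2 with the block). It was the cell cycle inhibitor gene Cdkn1a, at 72.3, 74.3 and 68.2 CPM without arginine and 117, 106 and 92.7 CPM without leucine (0.56, adjusted p = 0.00278). Of 18 genes of FOXO and growth restraint 1 was higher and 4 lower (1 and 2 without Gcn_Leu 2, Gcn_Leu 3 or Gcn_Arg 3). Klf15, a transcription factor of amino acid breakdown, rose in both starvations and less without leucine (54.2, 55.8 and 50.1 CPM against 68.2, 71.6 and 69.2 CPM, from 34.8 to 38.7 CPM, -0.39, adjusted p = 0.0106). Of 26 immediate early genes 3 were higher and 1 lower (2 and 0 without Gcn_Leu 1, 1 and 1 without Gcn_Arg 2, 7 and 7 with the block). Ier2 stood at 366, 385 and 334 CPM without leucine and 226, 269 and 233 CPM without arginine (0.58, adjusted p = 0.00183).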
